A study of Mus musculus with 6 samples.

Results

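The 10 neuropeptide precursor genes Penk, Pdyn, Npy, Sst, Cck, Vip, Tac1, Tac2, Crh and Cort were followed in the hippocampus of mice that had lost p300 in forebrain neurons. They were taken from 55471 genes by name, as precursors made by granule cells (Penk, Pdyn) or mainly by interneurons (the other 8). RNA-seq was performed on 3 p300-ifKO and 3 control hippocampi, 1 library for each individual male mouse. The p300-ifKO mice carried floxed Ep300 and Camk2a_creERT2, an inducible Cre that the Camk2a promoter drives in excitatory forebrain neurons. All mice were C57BL/6, aged between 3 and 6 months, and mice of both groups were dosed 5 times with tamoxifen (20 mg/mL, dissolved in corn oil). Controls are littermates without the Cre driver according to the protocol, but the driver is named in the description of every control library. Esr1, which encodes an estrogen receptor of the kind whose ligand binding domain is fused to Cre in creERT2, was at 87.2 to 109 normalized counts (reads divided by the size factor of the library) in the 3 controls and at 2416 to 4217 in the 3 p300-ifKO mice. The driver limits the model, since it acts in granule and pyramidal cells, and interneurons, where most of these precursors are made, keep Ep300.

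A neuropeptide is made as part of a longer precursor protein that enters the secretory pathway. Prohormone convertases cut the precursor at pairs of basic residues inside dense core vesicles, carboxypeptidase E trims the ends, and many peptides are then amidated. Release needs strong or repeated firing, and the peptides act on G protein-coupled receptors until peptidases degrade them. In the hippocampus the opioid precursors Penk and Pdyn mark granule cells and their mossy fibers, and the other 8 genes are used to tell classes of GABAergic interneurons apart, although Cck is also transcribed in pyramidal cells. The transcription factor CREB binds the cAMP response element, an element first studied in the Sst promoter, and recruits the lysine acetyltransferases CBP and p300. That element is therefore shown for the promoters of these genes.

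RefSeq promoters (assembly GRCm38.p6, 250 bases before to 50 bases after the start) were found for 8 of the 10 genes, with none for Penk and Crh, and Pdyn had 2. The full element TGACGTCA, which is its own reverse complement, was found in Sst alone, and 1.79% of 32851 promoters held it. The shorter form TGACG, searched on both strands (CGTCA on the other) and also counted within the full element, was found in 5 of the 8 genes and in 20.8% of all promoters. The 5 genes were Sst, Cck, Vip, Tac1 and Cort, and no match to these letters was found in the windows of Pdyn, Npy and Tac2. A stretch of 60 bases around each match is given below on the strand of the gene, with the match in capitals.
Sst, 48 bases before the start, chr16:23890860-23890919, minus strand: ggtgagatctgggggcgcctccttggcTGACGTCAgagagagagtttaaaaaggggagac
Cck, 47 bases before the start, chr9:121495709-121495768, minus strand: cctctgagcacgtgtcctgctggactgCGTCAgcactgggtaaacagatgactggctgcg
Vip, 79 bases before the start, chr10:5639112-5639171, plus strand: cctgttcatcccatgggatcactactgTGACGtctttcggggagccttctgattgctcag
Tac1, 43 bases before the start, chr6:7554991-7555050, plus strand: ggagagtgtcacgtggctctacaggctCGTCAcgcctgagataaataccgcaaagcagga
Tac1, 197 bases before the start, chr6:7554837-7554896, plus strand: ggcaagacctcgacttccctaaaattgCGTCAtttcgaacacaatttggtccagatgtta
Cort, 18 bases before the start, chr4:149126749-149126808, minus strand: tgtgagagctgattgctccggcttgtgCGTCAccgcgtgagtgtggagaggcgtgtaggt

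In Sst the full element is present, and in the other 4 genes only the shorter form is.

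Total counts were between 23151568 and 28433823 reads per library. Ep300, the targeted gene, had 1545, 1474 and 2334 normalized counts in control replicates 1, 2 and 3 and 478, 1350.3 and 912 in p300-ifKO replicates 1, 2 and 3. The groups did not overlap, p300-ifKO 2 was the nearest to the lowest control, and the log2 fold change of -0.97 (SE 0.33) gave an unadjusted p of 0.00369 (DESeq2, 0.991 when adjusted). With 1 surrogate variable Ep300 was called, at -0.48 (SE 0.091, DESeq2 adjusted p = 0.00127). It was also called without p300-ifKO 2, at -1.36 (SE 0.26, DESeq2 adjusted p = 0.000375), in a fit that called 7.9% of 11726 genes. Ep300 has 14273 exonic bases, and with length and GC offsets its value was -0.83 (SE 0.23), which was not called. Counts per gene include the transcripts of cells that keep the gene and do not resolve the floxed exon. Markers of the hippocampus were present: the summed level of 9 dentate granule markers was 14406 to 17172 normalized counts and that of 13 interneuron markers was 21639 to 26893 over the 6 libraries. Markers of neighbouring regions with their own peptide neurons were low or absent for the hypothalamus (8 markers, summed level 17.7 to 34.4, Sim1 at 0, the peptide genes Oxt, Hcrt, Pmch, Avp and Agrp below 10 on average) and the habenula (4 markers, 86.8 to 111). Those of the striatum, where Penk, Pdyn and Tac1 are abundant, summed to 1384 to 2073 over 6 markers and were highest in p300-ifKO 1. Those of the cortex summed to 2003 to 3230.5 over 5 markers and were highest in control 1. In bulk tissue, fewer cells of a type and less RNA per cell cannot be told apart.

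The levels of the 10 genes differed far more from each other than between the groups. Per kb of exonic length, which allows levels to be compared between genes, Sst was the most abundant, with 7442 ± 1138 normalized counts per kb in controls against 7981 ± 2440.0 in p300-ifKO mice (mean ± SD, n = 3 each). Cck followed with 3665 ± 371 and 4774.5 ± 1808, and Npy with 1834 ± 114 and 2362 ± 841. These 3 genes made up 50.9%, 27.9% and 13.9% of the summed level per kb of the 10. Penk, at 438 ± 86.2 in controls against 426 ± 111 in p300-ifKO mice, was the fourth, and Crh, at 26.7 ± 5.24 and 31.9 ± 10.2, the lowest.

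The remaining genes stood in the order Cort, Vip, Pdyn, Tac2 and Tac1, from 261 to 69.7 normalized counts per kb in control mice. The order was the same in all 6 libraries for 8 of the 9 neighbouring pairs, and in 5 of 6 for Tac2 and Tac1. Neighbours were separated beyond their range over the libraries for Npy and Penk, Penk and Cort, Cort and Vip, and Tac1 and Crh. The ranges overlapped for the other 5 pairs, among them Sst and Cck (5922 to 10676 against 3206 to 6751) and Tac2 and Tac1 (53.2 to 97.4 against 59.3 to 87.5). The values per kb rest on the exonic length over all transcripts of a gene, and a gene whose main transcript is shorter is understated.

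**Figure D1:**
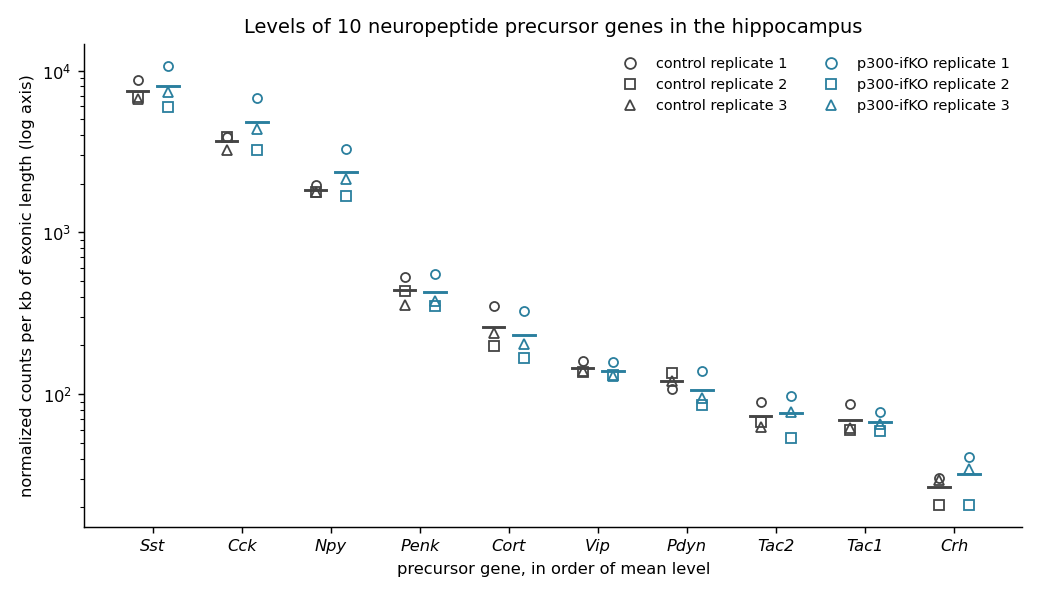
Level of each precursor gene in every library, as normalized counts per kb of exonic length on a log axis, with marker shapes for replicates and horizontal bars for the mean of each group of 3. Sst, Cck and Npy lay above the other 7 genes in every library, and for every gene the ranges of the groups overlapped.

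The comparison of p300-ifKO with control mice asked whether p300 in adult excitatory neurons is needed for gene expression in the hippocampus. None of the 10 precursors passed the test. With DESeq2, 0 of the 10 were called at an adjusted p under 0.05, where 2 of 32773 genes were called (0.0061%), both higher and neither a precursor (Esr1 and Arsi, which were named only once their values were known). At an unadjusted p under 0.05, 0 of the 10 and 432 of all genes (1.32%) passed. The groups overlapped for each of the 10, whereas they did not for 2175 of 32773 genes (6.64%), or 7.46% of the 17071 genes with a mean normalized count above 10. The change was positive for 5 genes and negative for 5, with a median log2 fold change of 0.0051 beside -0.046 over all genes tested and -0.0051 over genes above 10 normalized counts. All 10 were under 4 kb in exonic length. Among genes above 10 normalized counts the median was 0.17 under 1 kb, 0.20 from 1 to 2 kb and 0.088 from 2 to 4 kb. Over 4 kb it was -0.084. Adjusted p was between 0.991 and 0.997.

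The 2 opioid precursors of granule cells, where the driver acts, are described first, with gene positions on GRCm38. Penk (ENSMUSG00000045573, chr4:4133531-4138819, minus strand) encodes proenkephalin, the source of Met- and Leu-enkephalin. Penk was measured at 860.1, 708 and 579 normalized counts in control replicates 1, 2 and 3 and at 904, 570.0 and 612 in p300-ifKO replicates 1, 2 and 3. The lowest control and the lower 2 knockouts lay close together, and the highest value of each group was in replicate 1. The log2 fold change was -0.042 (SE 0.23, 95% interval -0.49 to 0.41, DESeq2 unadjusted p = 0.856). Penk shared 233 exonic bases (14.3% of its length) with A830012C17Rik on the other strand, a gene with 4 reads in all 6 libraries, and 8.6% of its 50-base stretches also occurred in another gene.

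Pdyn (ENSMUSG00000027400, chr2:129686565-129699844, minus strand) encodes prodynorphin, which yields dynorphins acting on the kappa receptor of mossy fiber terminals. Its values were 309, 389.8 and 350.0 normalized counts in controls against 402, 248 and 275 in p300-ifKO mice. A pair of knockout mice lay below all 3 controls and the remaining one lay above them. The log2 fold change was -0.18 (SE 0.22, interval -0.62 to 0.25, unadjusted p = 0.411). The ratio of Penk to Pdyn within a mouse was 2.78, 1.82 and 1.65 in controls against 2.25, 2.30 and 2.23 in p300-ifKO mice. The knockout ratios lay inside the control range, and the difference gave p = 0.7 in an exact two-sided permutation test, in which 3 against 3 mice cannot go below 0.1.

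Somatostatin, cortistatin and neuropeptide Y are peptides of interneurons that target dendrites, and Sst and Npy are made together in many of them. Sst (ENSMUSG00000004366, chr16:23889573-23890958, minus strand) was at 6309, 4967 and 4821 normalized counts in controls against 7697.5, 4269.9 and 5295.5 in p300-ifKO mice. The knockout mice included both the highest and the lowest value of the 6. The log2 fold change was 0.10 (SE 0.23, interval -0.35 to 0.55, unadjusted p = 0.659). Cort (ENSMUSG00000028971, chr4:149125034-149126763, minus strand), whose peptide resembles somatostatin and binds its receptors, was at 236, 133 and 161 in controls against 222, 114 and 138 in p300-ifKO mice. Replicate 1 was the highest of each group, and the log2 fold change was -0.16 (SE 0.32, interval -0.78 to 0.45, unadjusted p = 0.601).

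Npy (ENSMUSG00000029819, chr6:49822710-49829507, plus strand) was at 1113, 1000.2 and 1002 normalized counts in controls against 1866, 944 and 1201 in p300-ifKO mice. A pair of knockout mice lay above all controls and p300-ifKO 2 lay below them. For Npy the log2 fold change was 0.36 (SE 0.24, interval -0.11 to 0.84, unadjusted p = 0.132). Without p300-ifKO 2 it was 0.56 with an adjusted p of 0.0428 (DESeq2), in a fit where 926 of the 11726 genes with an adjusted p were called (7.9%, and 4.11% in the higher direction). Without p300-ifKO 1 it was 0.045.

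Cck (ENSMUSG00000032532, chr9:121489824-121495694, minus strand) encodes cholecystokinin, a peptide of basket cells and of pyramidal cells. It had the largest point estimate of the 10. The values were 5088, 5034.5 and 4225 normalized counts in controls against 8810.1, 4183 and 5699 in p300-ifKO mice. As for Npy, 2 knockout mice lay above the controls and p300-ifKO 2 below them. Its log2 fold change was 0.38 (SE 0.25, interval -0.11 to 0.88, unadjusted p = 0.131). Without p300-ifKO 2, Cck was called higher with a log2 fold change of 0.60 (DESeq2 adjusted p = 0.0297), and without p300-ifKO 1 the value was 0.046. Npy and Cck were the 2 called in that fit of the 8 precursors with an adjusted p, since Tac2 and Crh were filtered out there for low counts.

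Vip, vasoactive intestinal peptide, is made by interneurons that inhibit other interneurons. Vip (ENSMUSG00000019772, chr10:5639218-5647617, plus strand) had the smallest SE of the 10 and was at 547, 467.5 and 469 normalized counts in controls against 534, 449 and 443 in p300-ifKO mice. Replicate 1 was the highest of both groups, and the other 4 libraries lay close together. This gave a log2 fold change of -0.059 (SE 0.16, interval -0.37 to 0.25, unadjusted p = 0.705), so the data leave room for a fold between 0.776 and 1.19.

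The tachykinin precursors Tac1, the source of substance P, and Tac2, the source of neurokinin B, were less abundant. Tac1 (ENSMUSG00000061762, chr6:7554879-7565834, plus strand) was at 297, 204 and 209 normalized counts in controls against 262, 201.5 and 222 in p300-ifKO mice. The highest and the second highest values were both in replicate 1 of their group, and the log2 fold change was -0.054 (SE 0.22, interval -0.48 to 0.38, unadjusted p = 0.807). Tac2 (ENSMUSG00000025400, chr10:127724478-127731768, plus strand) was at 123.3, 92.45 and 86.7 in controls against 134, 73.3 and 107 in p300-ifKO mice. The knockout values spanned the control values on both sides, with a log2 fold change of 0.052 (SE 0.29, interval -0.52 to 0.63, unadjusted p = 0.859).

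Crh, corticotropin-releasing hormone, is made by a small class of hippocampal interneurons and acts on Crhr1 of pyramidal cells. Crh (ENSMUSG00000049796, chr3:19693401-19695396, minus strand) was counted with only 26 to 40 reads in controls against 31 to 50 in p300-ifKO libraries. The normalized counts were 39.8, 27.3 and 38.8 in controls against 53.7, 27.4 and 45.3 in p300-ifKO mice. Replicate 2 was the lowest of each group. The log2 fold change was 0.25 with the widest interval of the 10 (SE 0.38, interval -0.50 to 1.0, unadjusted p = 0.517).

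**Figure D2:**
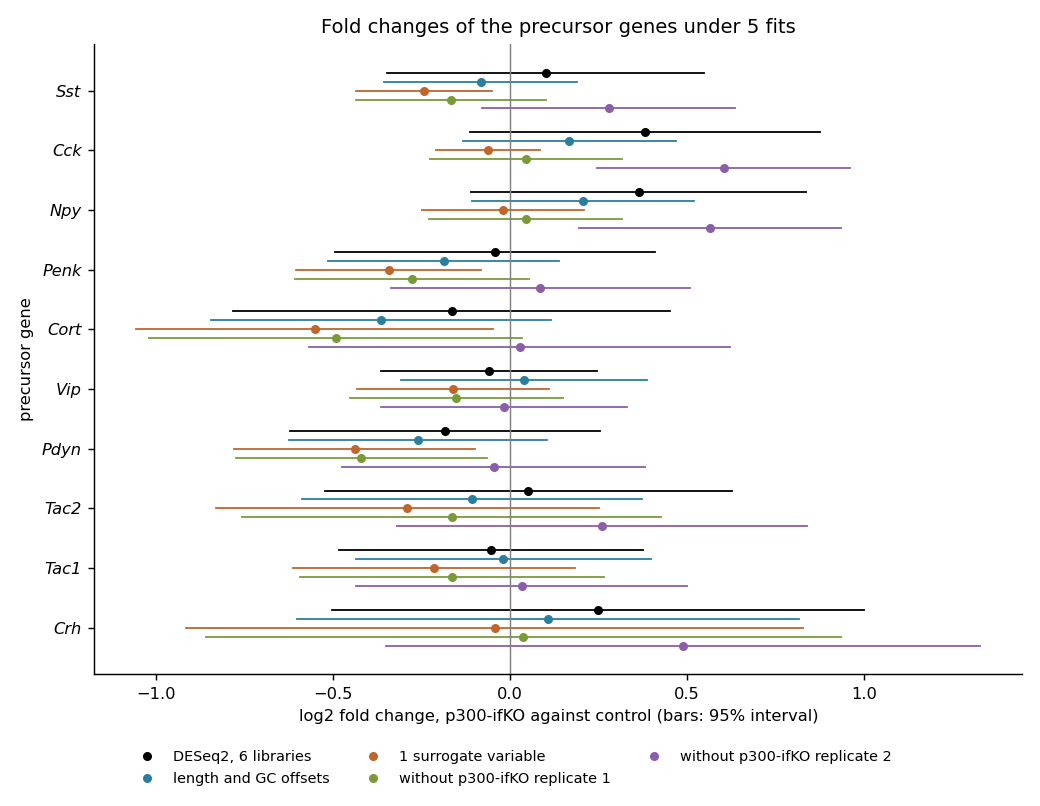
Log2 fold change of each precursor gene in p300-ifKO against control mice (points) with 95% intervals (bars) in 5 fits of the same counts. In the main fit (DESeq2, 6 libraries) and with length and GC offsets every interval included 0. With 1 surrogate variable the intervals of Penk, Pdyn, Sst and Cort lay below 0. That of Pdyn also lay below 0 without p300-ifKO 1, and those of Npy and Cck lay above 0 without p300-ifKO 2. Compared with the main fit, the points moved to the left without p300-ifKO 1 (median -0.16) and to the right without p300-ifKO 2 (median 0.17). In a fit not drawn, without control 1, the median was 0.19 and all points but that of Pdyn moved to the right. Pdyn went from -0.18 to -0.26, and Cck moved only from 0.38 to 0.43.

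The fold changes turned on single mice of both groups. Without control 1, 9 of the 10 values were positive, with a median of 0.19, and Penk (0.11), Vip (0.021), Tac1 (0.15) and Cort (0.10) changed sign.

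Among the knockouts, p300-ifKO 1 stood above the other 2 mice for every precursor. All 10 precursors were higher in p300-ifKO 1 than in p300-ifKO 2, where 50.2% of the genes above 10 normalized counts were, and all 10 were higher in p300-ifKO 1 than in p300-ifKO 3 (49.2% of genes). Among the controls, 9 of the 10, all but Pdyn, were higher in control 1 than in control 2 (48.5% of genes) and than in control 3 (52.6%). Of the 10, p300-ifKO 1 was the highest library for 7, where it was for 37.0% of genes, and p300-ifKO 2 was the lowest for 8, where it was for 14.3%. The remaining 3, Vip, Tac1 and Cort, were highest in control 1, as were 8.73% of genes. The summed normalized counts of the 10 were 14921, 13024 and 11941.5 in controls against 20885, 11080.4 and 14037 in p300-ifKO mice. Sst and Cck together gave 75.8% to 79.0% of that sum in each library.

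**Figure D3:**
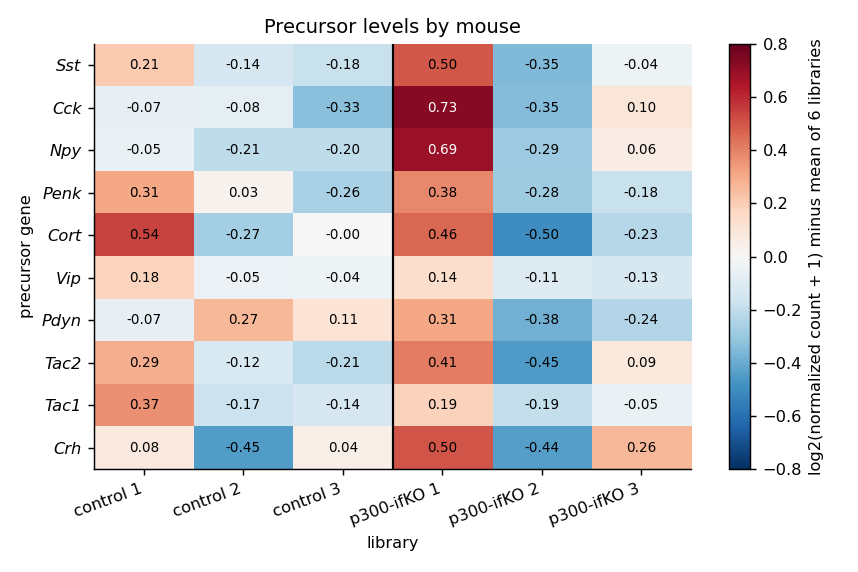
Log2(normalized count + 1) of each precursor gene in each library minus the mean of its 6 libraries, red for above and blue for below, with controls to the left of the line. The column of p300-ifKO 1 was above the mean for all 10 genes, up to 0.73 for Cck, and the column of p300-ifKO 2 was below the mean for all 10, down to -0.50 for Cort.

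The spread between mice was set beside that of counting alone. The coefficient of variation over 3 mice was 1.13 times the counting error for Crh in control mice, the least and close to counting error, and 29.3 times for Cck in p300-ifKO mice, the most. In control mice it ranged from 6.2% for Npy to 29.9% for Cort, and in knockouts from 10.7% for Vip to 37.9% for Cck. For 9 of the 10 genes, all but Tac1, the highest library exceeded the lowest by a larger fold in p300-ifKO than in control mice, as it did for 73.5% of the genes above 10 normalized counts. The median of that fold was 1.82 in p300-ifKO and 1.365 in control mice.

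Transcript length moved with these values. All 10 precursors were shorter than the median gene, with a median exonic length of 1349 bases against 4100.0 bases, from Npy with 566 to Vip with 3402. The deviation of a library from the mean of the 6 correlated with exonic length across 17054 genes in every library, with Spearman's rho of 0.18, 0.16 and 0.41 in controls and -0.51, 0.42 and -0.28 in p300-ifKO replicates 1, 2 and 3. The log2 fold change between the groups correlated with exonic length too, with a rho of -0.44 over 17071 genes. These are descriptions across genes, which share a library and are not independent replicates. The log2 ratio of p300-ifKO 1 over p300-ifKO 2 had a median of 0.60 for genes under 1 kb and of -0.26 for genes over 4 kb. For the precursors it ran from 0.25 for Vip, the longest, to 1.075 for Cck, with a median of 0.86 and a rho with length of -0.82 over the 10.

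When length and GC content were given to the model as offsets, the log2 ratio of these 2 mice remained above 0 for each of the 10 and lay between 0.29 and 0.60, with a median of 0.49 beside 0.074 over all genes above 10 normalized counts. The rho with length over the 10 was then -0.24. Cck went from 1.075 to 0.59 and Npy from 0.98 to 0.60, whereas Vip went from 0.25 to 0.51. The knockout mice had the wider range for 7 of the 10 genes and for 65.2% of all genes. The fold changes between the groups with these offsets were -0.19 for Penk, -0.26 for Pdyn, 0.21 for Npy and 0.17 for Cck, and 0 of the 10 passed an unadjusted p under 0.05 (1.44% of genes did).

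**Figure D4:**
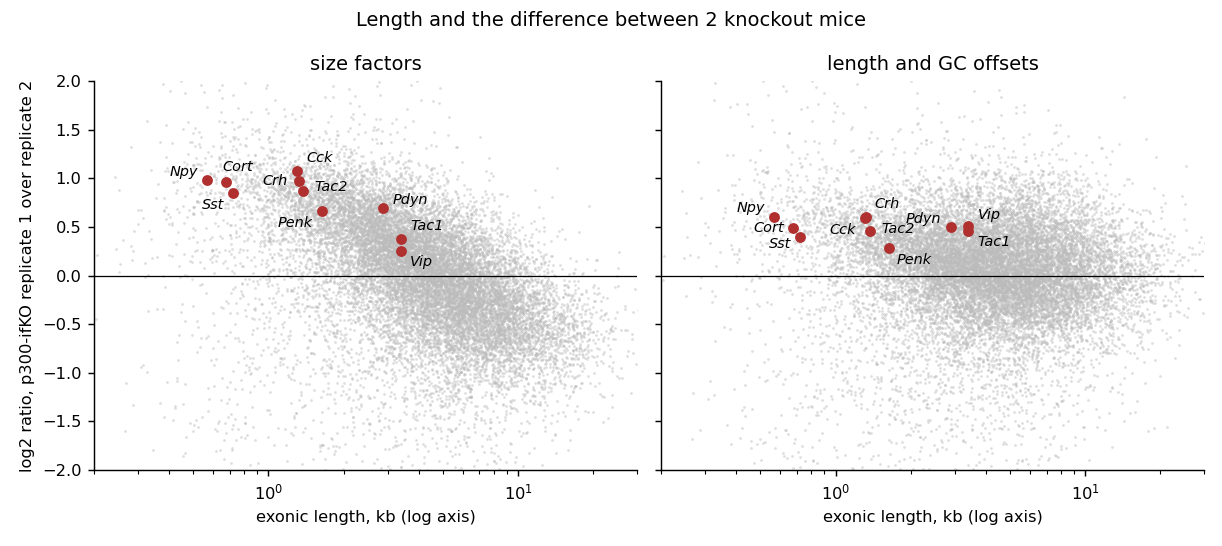
Log2 ratio of p300-ifKO replicate 1 over replicate 2 against exonic length in kb (log axis), for all genes with a mean normalized count above 10 (grey) and the 10 precursors (red), with size factors alone (left) and with length and GC offsets (right). A few genes lie beyond the axes. The grey cloud slopes down on the left and is nearly level on the right, and the red points lie above 0 in both, at 0.25 to 1.08 and 0.29 to 0.60.

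With 1 surrogate variable in the model, a variable estimated from the counts that was lowest in p300-ifKO 1 and highest in control 3, all 10 precursors had negative values, with a median of -0.23, and 0 were called (0.00915% of genes were). In this fit 4 of the 10 passed an unadjusted p under 0.05, where 0.604% of genes did (0.433% in the lower direction). They were Penk with -0.34 (SE 0.13, unadjusted p = 0.0104), Pdyn with -0.44 (SE 0.17, unadjusted p = 0.0116), Sst with -0.24 (SE 0.098, unadjusted p = 0.0133) and Cort with -0.55 (SE 0.26, unadjusted p = 0.0317), all by DESeq2. The adjusted p was 1 for each. The direction of 5 genes, Npy, Sst, Cck, Tac2 and Crh, was thus turned by this setting. Without p300-ifKO 1, Pdyn alone of the 10 passed an unadjusted p under 0.05 (0.413% of genes did), with -0.42 (unadjusted p = 0.0204, DESeq2 adjusted p = 1).

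Sst and Npy, which many of the same cells make, were also set against each other within each mouse. The ratio of Sst to Npy was 5.67, 4.97 and 4.81 in controls against 4.13, 4.52 and 4.41 in p300-ifKO mice. The 3 knockout ratios lay below the 3 control ratios, with means of 4.35 ± 0.205 and 5.15 ± 0.458 (SD, n = 3). The exact two-sided permutation test gave p = 0.1, the smallest it can give, and 0.4 after adjustment over 4 ratios. For 5.17% of 17046 genes the ratio of Sst to the gene did not overlap between the groups. The 4 ratios were chosen after the values of the genes had been seen. The ratios of Sst to Cort (26.8, 37.2 and 29.9 against 34.6, 37.5 and 38.4) and of Tac1 to Tac2 (2.41, 2.205 and 2.41 against 1.95, 2.75 and 2.07) overlapped between the groups, with exact permutation p of 0.2 and 0.8.

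The values of genes with and without the short element in the promoter were mixed. Of the 5 genes that held it, Sst and Cck had positive values (0.10 and 0.38) and Vip, Tac1 and Cort negative ones (-0.059, -0.054 and -0.16). Of the 3 genes whose windows lacked these letters, Npy and Tac2 had positive values (0.36 and 0.052) and Pdyn a negative one (-0.18). None of these passed the test above.

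The genes that act on the precursors and their products were read from lists, and none was called. Of the 13 processing genes, 6 had positive and 7 negative values, with a median log2 fold change of -0.12. Pcsk1n, whose product inhibits the convertase PC1/3, was at 6001, 5882 and 5221 normalized counts in controls against 13569, 5536 and 7513 in p300-ifKO mice. It was highest in p300-ifKO 1, as 7 of the precursors were, and the groups overlapped. Its log2 fold change was 0.64 (SE 0.29, unadjusted p = 0.0257, DESeq2 adjusted p = 0.991). It was 0.19 without p300-ifKO 1, 0.89 without p300-ifKO 2 (DESeq2 adjusted p = 0.00702) and 0.094 with 1 surrogate variable. The lysosomal protease gene Ctsl, also used for precursor cleavage in vesicles, had 0.31 (unadjusted p = 0.0503). The 5 granins, proteins of the dense core vesicle, had a median of 0.068, with 4 positive values, the largest for Chgb (0.32, unadjusted p = 0.0439) and Chga (0.20, unadjusted p = 0.188). Both were highest in p300-ifKO 1.

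Among the 20 receptors of these peptides 16 had negative and 4 positive values, with a median of -0.13, and 4 passed an unadjusted p under 0.05 in the lower direction (0.546% of all genes did). Tacr1, the receptor of substance P, was at 74.6, 44.1 and 66.3 normalized counts in controls against 21.5, 41.5 and 34.7 in p300-ifKO mice. The groups did not overlap, with a log2 difference of -0.91 (SE 0.37, unadjusted p = 0.0139). Npy1r, a receptor of neuropeptide Y, was at 1000.3, 1003 and 888 in controls against 706, 865 and 673 in p300-ifKO mice. These values did not overlap either, with a log2 difference of -0.365 (SE 0.15, unadjusted p = 0.0174). The other 2, Oprm1 and Sstr1, lie outside the rule for names and are given after their values were seen. Oprm1, the mu opioid receptor, was counted with 4 to 7 reads in controls against 0 to 1 in p300-ifKO libraries. Sstr1, a somatostatin receptor, had -0.80 (unadjusted p = 0.0491) and overlapping groups. Adjusted p was 0.991 for each of the 4 (DESeq2).

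The 11 genes of peptide degradation and binding had 3 positive and 8 negative values, with a median of -0.041. The values of smallest p were -0.26 for the peptidase gene Lnpep (unadjusted p = 0.185) and -0.39 for Anpep (unadjusted p = 0.194), both lowest in p300-ifKO 1. Of 34 other precursor genes 32 had a read, all but Ucn3 and Kiss1, with 17 positive and 15 negative values and a median of 0.094. Adcyap1, the precursor of PACAP, was at 325, 101 and 184 normalized counts in controls against 108.5, 97.2 and 104 in the knockouts. The log2 value of the change was -0.98 (SE 0.37, unadjusted p = 0.00892, DESeq2 adjusted p = 0.991), and control 1 was the highest, while control 2 lay between the knockout values. Without control 1 the value was -0.46. Npb, neuropeptide B, had 1.30 (unadjusted p = 0.0592) from low levels that did not overlap, 2.04 to 10.9 normalized counts in controls against 11.5 to 22.55 in knockouts.

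**Figure D5:**
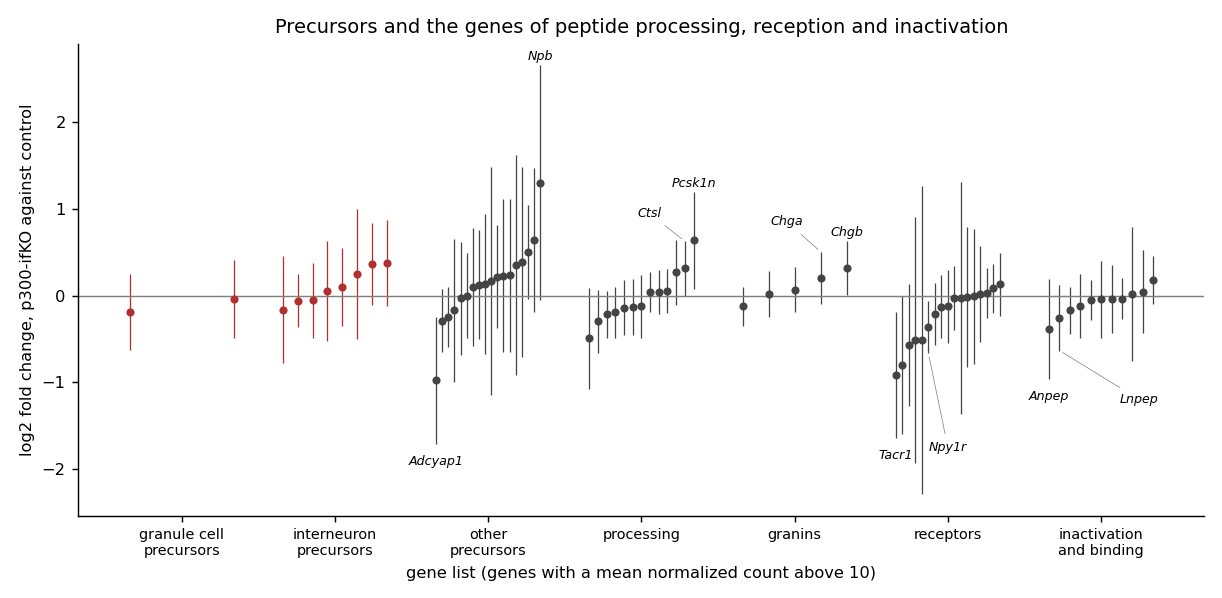
Log2 fold change of every gene with a mean normalized count above 10 in the precursor lists (the 10 genes in red) and in the lists of processing, granins, receptors, and inactivation and binding, with 95% intervals. No gene shown was called, and the labelled genes are the 2 with the smallest p in each list, such as Adcyap1 (-0.98) and Pcsk1n (0.64).

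The cells that make the precursors were read from their markers. Of the 13 interneuron markers 3 had positive and 10 negative values, with a median log2 fold change of -0.10, and 0 passed an unadjusted p under 0.05. Gad1 and Gad2, which make GABA, had -0.14 and -0.25, and Pvalb, a marker of another interneuron class, had 0.41 (unadjusted p = 0.13). The summed interneuron markers were lowest in p300-ifKO 1 (21639, of which 9074 from Gad1), the library in which Sst, Npy and Cck were highest. Single markers differed. Gad1, Gad2, Reln, Lhx6, Nxph1, Erbb4 and Adarb2 were lowest in p300-ifKO 1, whereas Pvalb and Npas1 were highest in it. The 13 interneuron markers had a median length of 4805 bases against 1312.5 for the 8 interneuron precursors, and their part in the result was not tested. Of the 9 granule cell markers 1 had a positive and 8 negative values, with a median of -0.11, and 0 passed an unadjusted p under 0.05. Penk and Pdyn had -0.042 and -0.18. The granule cell markers had a median length of 5066 bases against 2260.5 for Penk and Pdyn, and their part in the result was not tested. Of the 7 pyramidal markers 4 had positive and 3 negative values, with a median of 0.19, and 0 passed an unadjusted p under 0.05. Their median length was 2150 bases, and the part of length in their values was not tested. Choroid plexus markers, which show how much of that tissue a dissection took along, summed to 761 to 5543 over 7 markers. Their sum was highest in p300-ifKO 3, where Ttr alone had 4488 normalized counts. None of the 10 precursors was highest in p300-ifKO 3, where 6.83% of genes above 10 normalized counts were. The part of choroid plexus in the precursor values was not tested. The 6 striatal markers had a median of 0.052, and their part in the values of Penk, Pdyn and Tac1 was not tested.

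For the 3 precursors that varied most over the libraries, the genes of most similar profile were sought among 13613 genes, by the root mean square difference of centred log2(normalized count + 1) over the 6 libraries. For Cort they included Resp18 (0.15) and AC122898.1 (0.15). For Cck they were Rex1bd (0.014), Mcrip1 (0.022) and Pfdn5 (0.023), which all lie between 1282 and 1822 bases in length, near that of Cck (1305). For Crh they were Tmsb10 (0.079), 5830448L01Rik (0.083) and Pmf1 (0.094). Cck thus had the nearest neighbours, and Rex1bd was at 620.4, 603 and 499 normalized counts in controls against 1061, 504 and 679 in p300-ifKO mice, with p300-ifKO 1 as the highest.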

How the data were processed

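The authors trimmed single-end 50 bp reads (Trim Galore 0.6.4), aligned them with STAR 2.6.1 to GRCm38, kept mapping quality above 10 and counted reads on Ensembl 99 exons with Rsubread. The deposited values are raw counts per gene. The strand setting is not given in the sources used here, so overlap with opposite-strand genes is uncertain. Unused per-sample columns numbered 0.

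Here, identifiers were matched to GENCODE M21 (99.6% of genes). The test was DESeq2 1.42.0 (R 4.3.3; two-sided Wald, median-of-ratios size factors, no covariate, default filtering), with Benjamini-Hochberg adjustment over 32773 genes and a threshold of 0.05. Alternatives were edgeR 4.0.16 quasi-likelihood, limma-voom 3.58.1, TMM factors, a minimum of 10 counts in 3 libraries, a replicate block, 1 surrogate variable (sva 3.50.0), length and GC offsets (mgcv 1.9.3) and leaving out each library. Scripts were tested on simulated data. Intervals are 95%, and profiles used log2 with a pseudocount of 1. The 10 genes and all lists were chosen with earlier results of these data known. Named genes were the 10 precursors, Ep300, the 2 genes of smallest p in each pathway list, and, for the 3 most variable precursors, the 3 nearest profiles among genes with a mean of at least 50, of which 1 is not reported here. Each library was 1 mouse.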

Additional observations from a re-analysis of the deposited data

How the results depend on the processing

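With all 6 libraries, 0 of the 10 precursors was called under any of 7 alternatives (2 to 4 genes in all were), with adjusted p of at least 0.745. The signs of 6 precursors changed under some of these. With 1 surrogate variable (3 genes called in all, Ep300 among them) the log2 fold changes were -0.020 for Npy, -0.24 for Sst, -0.062 for Cck, -0.29 for Tac2 and -0.043 for Crh, and with length and GC offsets they were -0.083 for Sst, 0.040 for Vip and -0.11 for Tac2. The cause was not tested. Under edgeR, limma-voom, TMM factors and the count minimum no sign changed. The names of the count columns carried matching mouse numbers in both groups, without saying that these mice were pairs. Deviations of same-numbered mice correlated at 0.27, -0.28 and 0.13 over 17071 genes. With so few mice these correlations cannot decide whether the mice were paired. The main test was unpaired. The replicate block called 4 genes (Arsi, Esr1, Igha and Igkc) instead of 2 and changed no sign among the precursors.

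Leaving out 1 library at a time gave 2 to 926 genes called, 0 to 2 precursors called and a median over the 10 of -0.16 to 0.19, and the upper counts came without p300-ifKO replicate 2 alone. The ranges were -0.28 to 0.11 for Penk, -0.42 to -0.046 for Pdyn, 0.045 to 0.56 for Npy, -0.17 to 0.28 for Sst, 0.046 to 0.60 for Cck, -0.15 to 0.021 for Vip, -0.16 to 0.15 for Tac1, -0.16 to 0.26 for Tac2, 0.038 to 0.49 for Crh and -0.49 to 0.10 for Cort. Pdyn was the 1 precursor with the same sign in all 13 alternative fits. The difference of the mean ratio of Sst to Npy, p300-ifKO minus control, was -0.53 to -0.96 when a library was left out. The ratios of the groups did not overlap, so leaving out 1 library could not turn its sign. With offsets the difference was -0.89. Both settings were chosen after seeing the data. The 10 named pathway genes kept their sign in all 13 fits, but not their size: over these fits Pcsk1n ran from 0.094 to 0.89, Chga from 0.030 to 0.32, Lnpep from -0.019 to -0.42, Anpep from -0.12 to -0.56, Adcyap1 from -0.46 to -1.30, Ctsl from 0.13 to 0.47, Chgb from 0.16 to 0.42, Npb from 0.80 to 1.84, Tacr1 from -0.64 to -1.13 and Npy1r from -0.29 to -0.48. Of these, 3 (Npy1r, Pcsk1n and Ctsl) were called without p300-ifKO replicate 2, where 7.9% of 11726 genes were. Tacr1, Anpep and Npb had no adjusted p in that fit. All 10 had been picked for the smallest p of their list in these same libraries. That choice favours a stable sign, so the signs of the 10 pathway genes are no independent support. Depth limited Crh, with 26 to 50 reads per library.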
